A study of Mus musculus with 8 samples.

Results

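Spleens of mice lacking Nix were examined for the GIMAP genes, a family of 8 genes measured here (Gimap1, Gimap3, Gimap4, Gimap5, Gimap6, Gimap7, Gimap8 and Gimap9). The members were every probe set that the platform annotation gives to these symbols, which found 11 of the 45101 probe sets on the array. Gimap4, Gimap6 and Gimap7 had more than 1 probe set, 0 probe sets were shared with another named gene, and all 11 passed the filter on dim signal. The 2 groups were 4 Nix-null mice (Nix-/-, group Nix_KO) and 4 wild-type mice (group WT), all 8 weeks old and without treatment, with spleen RNA that was not pooled. Nix is the product of Bnip3l, a mitochondrial protein needed to clear mitochondria from maturing red cells. The strain, the sex and the deleted part of the gene are not given in the sources used here. Nothing in the labels says that the null was limited to 1 cell type. Arrays are named by genotype and title number: Nix_KO 10, 2, 3 and 6, and WT 3, 4, 5 and 6.

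GIMAP proteins are small GTPases that sit on intracellular membranes and are known chiefly from T and B lymphocytes, whose survival several of them support. Mice without Gimap5 lose T cells and natural killer cells, and Gimap1 is needed for mature T and B cells to persist. The genes form 1 cluster on mouse chromosome 6, in the order Gimap8, Gimap9, Gimap4, Gimap6, Gimap7, Gimap1, Gimap5 and Gimap3 in the RefSeq gene table (GRCm38.p6).

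The 250 bases before the start of 4 of the genes are shown, from RefSeq on GRCm38.p6. Whether the members share regulation was not tested. They are Gimap1 with the largest fall, Gimap4 and Gimap6 as members with 2 probe sets each, and Gimap9 with the smallest difference. Capitals mark letters searched for on both strands. RUNX factors were searched for by the core TGTGGT, or its variant form TGCGGT. For ETS factors the core was CGGAAG, and for IKAROS it was TGGGAA. The TATA box was searched for as TATAAA.
Gimap1, chr6:48738797-48739046, plus strand: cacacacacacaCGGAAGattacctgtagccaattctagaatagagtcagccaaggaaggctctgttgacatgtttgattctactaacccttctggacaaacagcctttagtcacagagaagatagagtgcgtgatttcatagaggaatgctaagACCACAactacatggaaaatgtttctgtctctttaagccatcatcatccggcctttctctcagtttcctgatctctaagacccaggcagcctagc
Gimap4, chr6:48684328-48684577, plus strand: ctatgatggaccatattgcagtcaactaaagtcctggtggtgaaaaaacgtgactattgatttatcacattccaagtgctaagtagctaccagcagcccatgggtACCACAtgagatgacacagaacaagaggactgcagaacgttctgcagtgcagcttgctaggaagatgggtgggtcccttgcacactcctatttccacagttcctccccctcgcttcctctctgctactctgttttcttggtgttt
Gimap6, chr6:48708245-48708494, minus strand: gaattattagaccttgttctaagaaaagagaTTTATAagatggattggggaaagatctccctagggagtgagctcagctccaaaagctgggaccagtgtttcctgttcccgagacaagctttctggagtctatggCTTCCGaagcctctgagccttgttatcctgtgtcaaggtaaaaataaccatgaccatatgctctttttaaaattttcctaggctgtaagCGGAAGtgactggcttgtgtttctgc
Gimap9, chr6:48675885-48676134, plus strand: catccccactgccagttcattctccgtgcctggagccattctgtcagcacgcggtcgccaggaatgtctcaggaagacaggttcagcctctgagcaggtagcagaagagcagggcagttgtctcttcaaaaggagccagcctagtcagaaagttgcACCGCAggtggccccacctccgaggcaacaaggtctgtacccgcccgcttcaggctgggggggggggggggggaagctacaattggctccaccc

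All 8 genes were found in the promoter table, with 9 starts because Gimap8 has 2. TGTGGT lay in 3 of the 9 windows (Gimap1, Gimap4 and Gimap7) and in 14% of all 32851 windows of that length. For CGGAAG the count was also 3 (Gimap1, Gimap6 and the later start of Gimap8), against 13.6% of all windows. TGCGGT lay in that of Gimap9 alone (5.1% of all) and TATAAA in that of Gimap6 alone (12.4% of all). The letters TGGGAA were in 0 of 9 windows and 21.6% of all. The windows of Gimap3, Gimap5 and the earlier start of Gimap8 held none of these letters. In the Gimap1 window the RUNX core lies at position -95 and the ETS core at -238 from the start. A match is only a match of letters.

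GIMAP signal was lower in Nix-null than in wild-type spleen on the deposited scale and after quantile or median scaling, whereas Gimap9 and 1 Gimap4 probe set turned higher with arrays scaled to T cell markers, and 9 of 11 probe sets with arrays scaled to B cell markers. The T and B cell scalings moved the median of all genes to 0.66 and 1.23. With each gene represented by its brightest probe set, 7 of 8 genes fell, 0 rose and Gimap9 did not pass, where 24.1% of all 11027 genes tested fell (limma, adjusted p under 0.05). Their median log2 difference was -1.02, against -0.15 over all genes, with a range from -1.67 for Gimap1 to -0.34 for Gimap9. Among probe sets 8 of 11 fell and 0 rose, against 17.6% of all 22347 probe sets tested. The 4 Nix-null arrays lay wholly below the 4 wild-type arrays for 7 of 11 probe sets, as for 19.5% of all, and for 5 of 8 genes, as for 23.9% of all. Among all genes 14.2% rose. In whole spleen, a change in the mix of cells and less RNA per cell cannot be told apart. The counts rest partly on single arrays: without WT 6 alone, 3 genes (Gimap1, Gimap3 and Gimap6) and 5 probe sets fell, and without WT 4 alone 5 probe sets fell. The share over all features dropped as well, to 16.5% of genes and 9.43% of probe sets without WT 6, and to 9.38% of probe sets without WT 4.

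**Figure D1:**
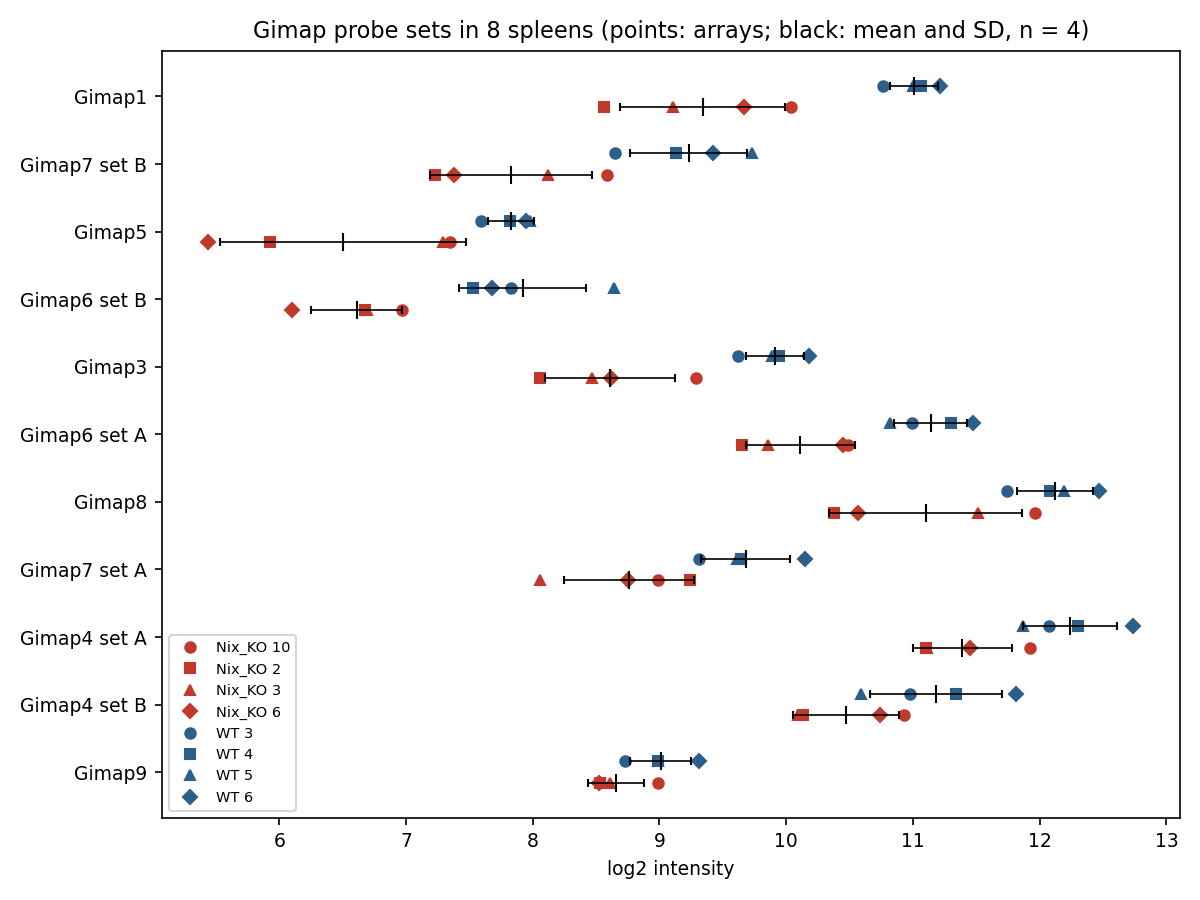
Log2 intensity (horizontal axis) of each of the 11 Gimap probe sets (vertical axis, ordered by change) in the 4 Nix_KO and 4 WT arrays on the deposited scale, with the mean and SD in black. Gimap1 separates the genotypes most widely, while the groups overlap for Gimap8, Gimap9 and both Gimap4 probe sets.

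Signals of different probe sets are not on 1 scale, so the members are ordered by their change and not by level. Probe set values below are log2 intensities, and each adjusted p of a probe set is over all probe sets.

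Gimap1, whose product is needed for mature lymphocytes to survive, changed most. Its probe set (1449988_at) read 10.04, 8.56, 9.11 and 9.67 in Nix_KO 10, 2, 3 and 6, and 10.76, 11.06, 11.00 and 11.21 in WT 3, 4, 5 and 6. Every Nix-null array was below every wild-type one, and the Nix-null arrays were spread more widely. The means were 9.34 ± 0.65 and 11.01 ± 0.19 (SD, n = 4 each), a 3.18-fold fall (log2 difference -1.67 ± 0.29 SE, limma adjusted p = 0.00436). Only 0.792% of tested probe sets had a lower difference.

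Gimap5 and Gimap3 are close relatives, both anchored in membranes and linked to mitochondria and T cell survival. How far their probes could read each other's transcript was not tested. Gimap5 (1444181_at) read 7.35, 5.93, 7.29 and 5.44 in Nix_KO 10, 2, 3 and 6, and 7.59, 7.82, 7.98 and 7.95 in WT 3, 4, 5 and 6. The groups did not overlap, but Nix_KO 10 and 3 lay close under the wild-type arrays and Nix_KO 2 and 6 far below. The fall was 2.52-fold (log2 -1.33 ± 0.41 SE, limma adjusted p = 0.0342). Over probe sets it lost its call when any single array other than Nix_KO 10 or 3 was left out, with a log2 difference of -0.98 without Nix_KO 6 and -1.14 without Nix_KO 2.

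Gimap3 (1449220_at) read 9.29, 8.06, 8.47 and 8.62 in the Nix-null arrays, in the same order, and 9.62, 9.94, 9.89 and 10.18 in the wild-type ones. All Nix-null values were below all wild-type values, with Nix_KO 10 nearest to them. It fell 2.46-fold (log2 -1.30 ± 0.25 SE, limma adjusted p = 0.00619), and this call held whichever single array was left out.

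Gimap6, whose product binds an autophagy protein of the GABARAP group, had 2 probe sets that both fell. Set A (1427891_at) read 10.49, 9.65, 9.86 and 10.45 in the Nix-null and 10.99, 11.30, 10.82 and 11.47 in the wild-type arrays, a 2.04-fold fall (limma adjusted p = 0.0118). Set B (1456762_at) read 6.97, 6.68, 6.69 and 6.10, and 7.83, 7.53, 8.64 and 7.68, a 2.48-fold fall (limma adjusted p = 0.00775). Neither set had overlapping groups. The sets placed the wild-type arrays in different orders: WT 5 was the lowest for set A and the highest for set B.

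Gimap7, a GTPase known to work as a dimer, also had 2 probe sets that fell. Set A (1425084_at) read 8.99, 9.24, 8.06 and 8.75 in Nix_KO 10, 2, 3 and 6 and 9.31, 9.64, 9.61 and 10.15 in the wild-type arrays, a fall of 1.89-fold (limma adjusted p = 0.031). Set B (1444283_at) read 8.59, 7.23, 8.12 and 7.38, and 8.65, 9.13, 9.73 and 9.42, a fall of 2.64-fold (limma adjusted p = 0.0132). Nix_KO 2 was thus the highest Nix-null array in set A and the lowest in set B. Over probe sets, Gimap7 set A lost its call without Nix_KO 3 (log2 -0.68), Nix_KO 6 (-0.91), WT 4 (-0.93), WT 5 (-0.94) or WT 6 (-0.76), in place of -0.92, and with arrays centred on their median (-0.79, limma adjusted p = 0.054).

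Gimap8, the largest protein of the family, with several GTPase domains, read 11.96, 10.38, 11.51 and 10.57 in the Nix-null and 11.74, 12.08, 12.19 and 12.47 in the wild-type arrays (1456061_at). Nix_KO 10 lay above WT 3, so the groups overlapped. The log2 difference was -1.01 ± 0.34 SE, with limma adjusted p = 0.0502 over probe sets and 0.0342 over genes, so its call depended on which features were adjusted over. Without Nix_KO 10 the difference was -1.30 (limma adjusted p = 0.0117 over probe sets). At the gene level the call was lost without any 1 of Nix_KO 2, Nix_KO 6, WT 4, WT 5 and WT 6 (log2 from -0.77 to -1.03).

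Gimap4, known for hastening the death of T cells, had 2 probe sets that overlapped between the genotypes. Gimap4 set A (1424375_s_at) read 11.92, 11.10, 11.11 and 11.45 in the Nix-null and 12.07, 12.30, 11.87 and 12.74 in the wild-type arrays, with Nix_KO 10 just above WT 5. It fell 1.80-fold (log2 -0.85 ± 0.24 SE, limma adjusted p = 0.0279), a call lost over probe sets without Nix_KO 2 (-0.75), Nix_KO 3 (-0.75), WT 4 (-0.83) or WT 6 (-0.69). Set B (1424374_at) read 10.93, 10.13, 10.09 and 10.74, and 10.98, 11.34, 10.59 and 11.81. Its difference of -0.71 ± 0.29 SE did not pass (limma adjusted p = 0.0929).

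Gimap9, of which little is known, had the smallest difference. Its probe set (1437756_at) read 8.99, 8.53, 8.61 and 8.52 in the Nix-null and 8.73, 8.99, 8.99 and 9.31 in the wild-type arrays, with Nix_KO 10 level with WT 4 and WT 5 and above WT 3. The log2 difference was -0.34 ± 0.18 SE (95% interval -0.74 to 0.05, limma adjusted p = 0.167).

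**Figure D2:**
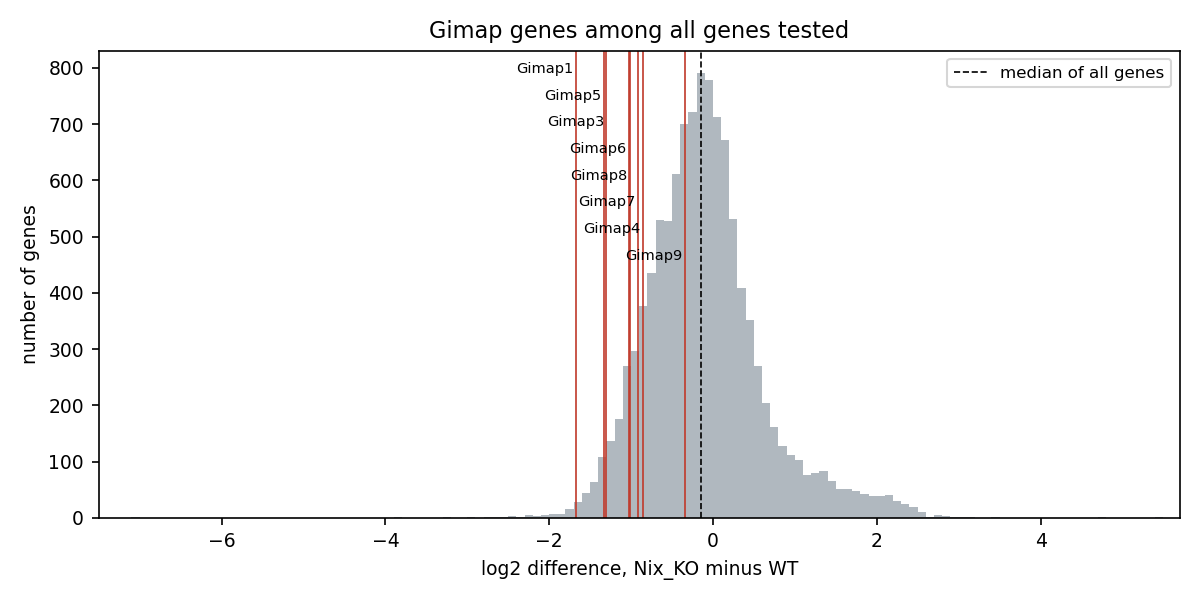
Histogram of log2 differences, Nix_KO minus WT (horizontal axis), of all 11027 genes tested, with the number of genes on the vertical axis, on the deposited scale. Red lines mark the 8 Gimap genes, from -1.67 to -0.34, and the dashed line marks the median of all genes, -0.15.

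The order of the changes by gene was Gimap1, Gimap5, Gimap3, Gimap6, Gimap8, Gimap7, Gimap4 and Gimap9. No neighbours in that order differed beyond their spread: the exact permutation p of the difference between their changes ran from 0.0857 (Gimap4 and Gimap9) to 0.943 (Gimap6 and Gimap8). Of all 28 pairs of members, 7 reached p = 0.0286, the smallest that a two-sided exact test of 4 against 4 arrays can give. The largest of these differences were -1.33 for Gimap1 minus Gimap9 and -0.96 for Gimap3 minus Gimap9, and Gimap1 also fell further than Gimap4 (-0.82), Gimap7 (-0.75) and Gimap6 (-0.64) at that unadjusted p. After Benjamini-Hochberg adjustment over the 28 pairs 0 passed, with a lowest adjusted exact p of 0.114. The 2 probe sets of Gimap4, Gimap6 and Gimap7 were compared in the same way, and their changes differed by -0.14, 0.28 and 0.49 (set A minus set B, exact permutation p = 0.314, 0.629 and 0.429).

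The arrays of 1 genotype kept a similar order across the family only in part. Nix_KO 10 was the highest Nix-null array for 10 of 11 probe sets. The lowest was Nix_KO 2 for 6, Nix_KO 6 for 3 and Nix_KO 3 for 2. WT 6 was the highest wild-type array for 8 of 11 and WT 3 the lowest for 7, while WT 5 was the highest for 3 and the lowest for 3. The mean over the 8 genes was 9.88, 8.93, 9.25 and 9.18 in Nix_KO 10, 2, 3 and 6 and 10.10, 10.39, 10.29 and 10.68 in WT 3, 4, 5 and 6. Control probe sets give a sign of RNA quality: the log2 signal of the 3' end minus that of the 5' end of Actb was 1.03, 1.74, 1.58 and 0.84 in Nix_KO 10, 2, 3 and 6 and from 0.69 to 0.98 in wild type. For Gapdh it was 1.14, 1.53, 1.76 and 0.94, and from 0.81 to 1.22. Nix_KO 2 and 3 had the widest gaps, while Nix_KO 6, with a GIMAP mean between theirs, had the narrowest of its genotype. The part of RNA quality in the result was not tested. Without Nix_KO 2 the count was 5 of 8 genes, and without Nix_KO 3 it was 7, where 21.2% and 19.5% of all genes fell.

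Marker genes of the cells that carry GIMAP transcripts were lower too. Of 21 tested T cell markers 11 fell and 0 rose, where 24.1% of all genes fell and 14.2% rose. Their median log2 difference was -0.86, and the list mean ran from 7.93 to 8.85 in Nix-null and from 8.74 to 9.38 in wild-type arrays. All 19 tested B cell markers fell (median -1.39; list means 9.84 to 10.61 and 11.36 to 11.68). Of 12 natural killer cell markers 10 fell (median -1.10; 6.85 to 7.33 and 7.79 to 8.34), and of 14 endothelial markers 11 (median -0.89; 7.17 to 7.67 and 8.11 to 8.31). All 18 erythroid markers rose (median 2.06; 12.30 to 12.79 and 9.51 to 11.33). The T cell count was 7 without WT 5 or without WT 6, where 18.4% and 16.5% of all genes fell. Of 10 dendritic cell markers 7 fell, and of 13 neutrophil markers 12 rose. For macrophage markers the count was 4 of 14 lower, a share near that of all genes. The filter on dim signal itself left out any marker of these 8 lists under a log2 intensity of 5 in all arrays. Some tested markers lay near that floor in 1 genotype. Klre1, a natural killer cell marker, read 4.22 to 4.8 in Nix-null and 5.41 to 5.92 in wild-type arrays. Fcnb, a neutrophil marker, read 5.78 to 6.73 and 3.65 to 5.06. Nix_KO 10 had the highest T cell mean of the Nix-null arrays (8.85) as well as the highest GIMAP mean, and WT 6 the highest of the wild-type ones (9.38). The other lists did not all follow: Nix_KO 10 was low for natural killer cell (6.91) and endothelial markers (7.18), and WT 6 was the lowest wild-type array for endothelial markers (8.11).

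**Figure D3:**
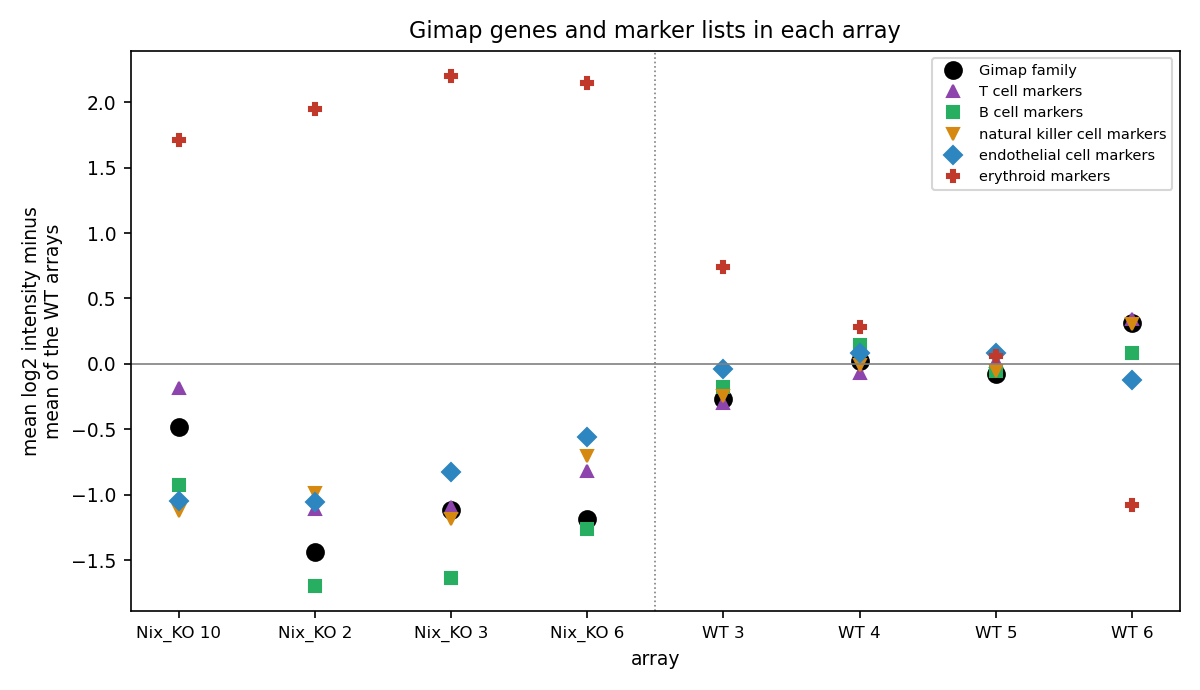
Mean log2 intensity of the 8 Gimap genes and of 5 marker lists in each array (horizontal axis), minus that list's mean over the 4 WT arrays (vertical axis, deposited scale). In the Nix_KO arrays Gimap genes and the lymphoid and endothelial markers lie below 0 and erythroid markers above, and the Gimap points of Nix_KO 10 and WT 6 are the highest of their genotypes.

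Set against T cell markers, most of the family difference was gone. The GIMAP mean minus the T cell marker mean averaged 1.08 ± 0.16 over the Nix-null and 1.33 ± 0.08 over the wild-type spleens (SD, n = 4 each), a difference of -0.25 in place of -1.06. The groups overlapped, with Nix_KO 3 (1.32) above WT 5 (1.23) and WT 6 (1.3). Minus the B cell marker mean the GIMAP mean was -0.84 ± 0.20 and -1.17 ± 0.16, a difference of 0.32. GIMAP signal was thus higher on average relative to B cell markers in Nix-null spleen, but Nix_KO 6 (-1.09) lay below WT 6 (-0.94). Neither difference was tested. Minus natural killer cell markers the difference was -0.06, but the Nix-null arrays ran from 1.85 to 2.97, on both sides of the wild-type range of 2.31 to 2.36. Minus endothelial markers it was -0.18, with means of 1.96 ± 0.51 and 2.14 ± 0.30.

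With every array scaled to its T cell markers, which moved the median of all genes to 0.66, Gimap1 alone of the 11 probe sets passed (log2 -0.86, limma adjusted p = 0.0312), where 0.859% of all probe sets fell. Gimap7 set B, Gimap5, Gimap6 set B and Gimap3 then differed by -0.60, -0.53, -0.51 and -0.49, while Gimap4 set A differed by -0.05 and Gimap9 by 0.46, and none of these passed. With arrays scaled to B cell markers, which moved the median of all genes to 1.23, Gimap1 differed by -0.29 and Gimap7 set B by -0.02, and the other 9 probe sets turned above 0. Of these, Gimap9 (1.04, limma adjusted p = 0.000842) and Gimap4 sets A (0.53, 0.049) and B (0.67, 0.0253) passed as higher. Under B cell scaling 19132 of all 22347 probe sets were called, with only 0.157% of all lower, and 86.6% of all genes rose. How far lymphocyte content accounts for each member was not tested beyond these values.

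**Figure D4:**
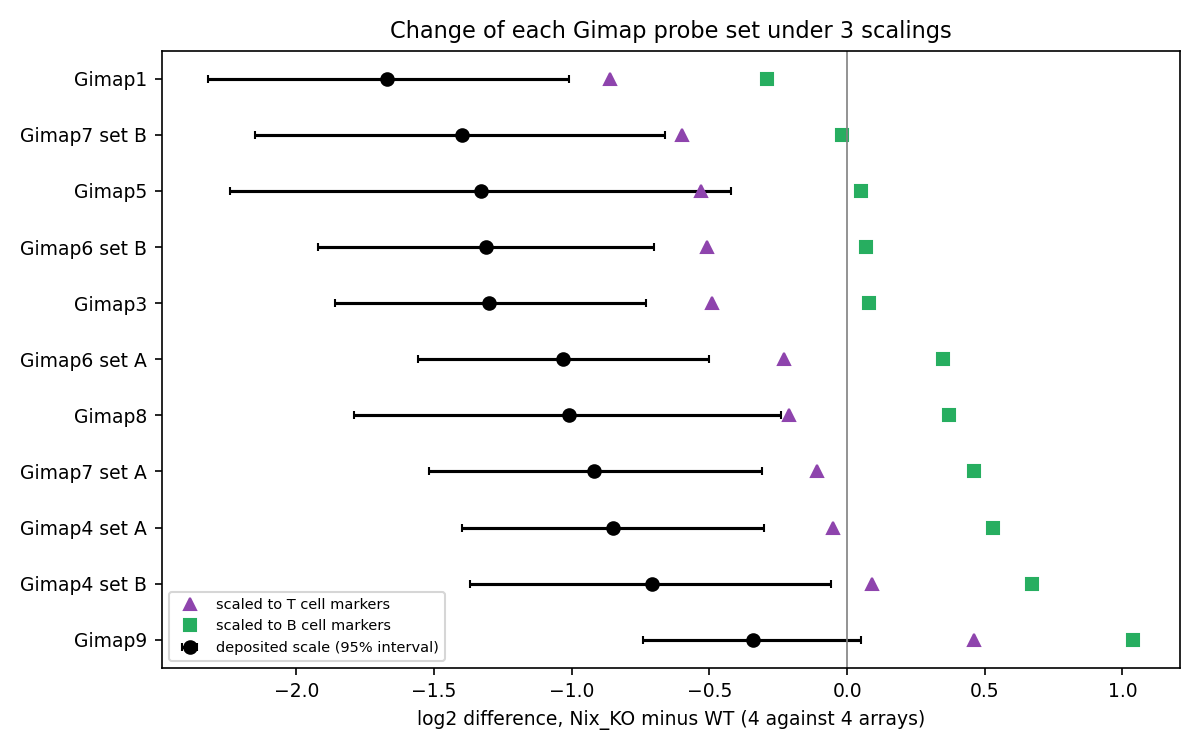
Log2 difference, Nix_KO minus WT (horizontal axis), of each Gimap probe set (vertical axis) on the deposited scale (black, with 95% interval) and with arrays scaled to T cell or B cell markers. All 11 lie below 0 on the deposited scale; Gimap9 and Gimap4 set B lie above 0 when scaled to T cell markers, and all but Gimap1 and Gimap7 set B when scaled to B cell markers.

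Genes that act beside the family in keeping resting lymphocytes alive were lower on balance. Of 28 tested genes of naive lymphocyte survival and quiescence 16 fell, 2 rose and 10 did not pass, where 24.1% of all genes fell and 14.2% rose. Their median log2 difference was -0.80, against -0.15 over all genes. The transcription factor genes Runx3 and Klf2 fell 2.41-fold and 2.37-fold, and Coro1a, an actin regulator that T cells need to survive, fell 1.93-fold (limma adjusted p = 0.00276, 0.00395 and 0.00482). The 2 that rose were Bcl2l1 (2.71-fold) and Myb (log2 0.72; limma adjusted p = 0.00186 and 0.0138). Both are also active in red cell precursors, but whether that bears on their rise was not tested. Bcl2, a survival gene whose protein GIMAP5 has been reported to bind, differed by -0.91 (limma adjusted p = 0.036), a call lost without any single array other than Nix_KO 10 (-0.60 without Nix_KO 2). Il7r, the interleukin-7 receptor on which naive T cells depend, read 10.14, 8.40, 9.42 and 9.06 in Nix_KO 10, 2, 3 and 6 and from 9.25 to 9.88 in wild type. Its difference of -0.34 did not pass (limma adjusted p = 0.438), and it was 0.05 by the mean of its probe sets. With arrays scaled to T or B cell markers 0 of the 28 fell, where only 0.78% and 0.118% of all genes did.

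GTPases of immune defence were compared with the family. Of 10 tested immunity-related and guanylate-binding GTPases, which interferon induces, 5 fell and 0 rose, with a median of -0.64: Gbp8 2.09-fold, Gbp3 1.68-fold, Gbp6 1.67-fold, Gbp2 1.62-fold and Irgm2 1.56-fold (limma adjusted p = 0.0235, 0.0446, 0.0214, 0.047 and 0.012). Only Irgm2 of these 5 had groups that did not overlap. Of all genes 24.1% fell, and for 23.9% the Nix-null arrays lay wholly below the wild-type ones. The number that fell was 1 without WT 4 or WT 6, 2 without Nix_KO 2 or WT 3, and 3 without Nix_KO 3 or Nix_KO 6. Of all genes 16.1% fell without WT 4, 16.5% without WT 6, 21.2% without Nix_KO 2 and 22.6% without WT 3. Without Nix_KO 3 it was 19.5% and without Nix_KO 6 24.9%. Scaled to T or B cell markers, 0 of the 10 fell, as did only 0.78% and 0.118% of all genes. Whether the GIMAP changes differed from those of this list was not tested.

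The genes that flank the cluster on chromosome 6 were examined as well, 10 named protein-coding genes on each side. Of these 20, 15 could be tested, and 7 fell and 0 rose, against 24.1% of all genes that fell; their median was -0.46. The nearest gene before the cluster, Zfp775, a zinc finger gene, fell 2.24-fold, with means of 5.56 ± 0.50 in Nix-null and 6.72 ± 0.19 in wild-type spleen (SD, n = 4 each). On the other side Tmem176b and Tmem176a, membrane proteins of myeloid and dendritic cells, fell 2.14-fold and 2.35-fold. Rarres2, the precursor of chemerin, fell 1.89-fold and Zfp467 2.01-fold. These 5 were named for the smallest limma adjusted p of the 15, from 0.0025 to 0.00532. All had groups that did not overlap, and for 23.9% of all genes the Nix-null arrays lay wholly below the wild-type ones. With arrays scaled to T cell markers 0 of the 15 fell and 3 rose, where 0.78% of all genes fell and 41.1% rose. On the deposited scale 1 rose without Nix_KO 6 or without WT 4, where 12.9% and 11.6% of all genes rose.

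The genes whose pattern over the 8 arrays was most like the family mean were found by the root mean square difference in log2 units between centred profiles, among 11019 other genes. The nearest was Hif1a, the oxygen-sensing transcription factor gene, at 0.0748. It read 10.36, 9.42, 9.81 and 9.89 in Nix_KO 10, 2, 3 and 6 and 10.57, 10.84, 10.86 and 11.21 in the wild-type arrays. Abi3bp (0.103), Cd8a (0.104), Uhrf1bp1l (0.104), Tlr1 (0.106), Birc3 (0.109), Papss2 (0.112), Retreg1 (0.113), Plekha2 (0.115) and Helz2 (0.118) followed. Cd8a marks cytotoxic T cells, Tlr1 is a receptor for bacterial lipoproteins, and Birc3 is an inhibitor of apoptosis. The median distance of all genes was 0.596. Of the members themselves Gimap3 was nearest to the family mean (0.154), with 39 other genes at least as near, and Gimap5 farthest (0.494), with 3721. The other members had from 141 (Gimap4) to 2410 (Gimap7) other genes at least as near. All 8 members lay nearer to the family mean, of which each is a part, than the median gene did.

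Facts of the arrays bear on all of these values. The 3 probe sets of Bnip3l, shared with its pseudogene, gave signal in both genotypes and differed by 0.43, -0.50 and 0.58 (limma adjusted p = 0.158, 0.164 and 0.117), so they did not check the labels. Pancreatic acinar genes were high in Nix_KO 3 (list mean 13.09), WT 3 (12.17) and WT 5 (10.12) and from 5.43 to 7.53 elsewhere. Without these 3 arrays 3 Gimap genes fell (Gimap1, Gimap3 and Gimap6) and 0 probe sets, where 7.6% of all genes and 0.85% of all probe sets fell in the 5 remaining arrays. The log2 difference of Gimap1 was then -1.72 (limma adjusted p = 0.0765 over probe sets).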

How the data were processed

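Whole-spleen RNA of 4 Nix-null and 4 wild-type mice was hybridised to Affymetrix mouse arrays, not pooled, per the labels' protocols. The values deposited by the authors are GCRMA intensities, 1 for every probe set on an array, per the submitters' processing notes, with the GCRMA version not given in the sources used here. They are linear, with array medians from 28.85 to 30.61, and were log2-transformed. Background correction can compress or stretch the fold changes of dim probe sets. The number of arrays, 4 per group, limits precision.

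Control probe sets (64) were left out, and 22347 of 45037 probe sets with a log2 intensity of at least 5 in at least 4 arrays were tested. A gene (11027 in all) was represented by its single-symbol probe set with the highest mean; 932 probe sets with several symbols were not named. Genotypes were compared by two-sided lmFit and eBayes fits in limma 3.58.1 under R 4.3.3. Every limma p-value was adjusted by Benjamini-Hochberg across all features, and 0.05 was the threshold. Differences between members were tested by exact permutation (scipy 1.17.1), with Benjamini-Hochberg adjustment over the pairs compared. Exact p-values are unadjusted unless called adjusted. The fit was tested on simulated data. Figures were drawn with matplotlib 3.10.9.

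The members, lists and rules were chosen with earlier results of these data known. Named were all members, up to 4 genes past the threshold with the smallest adjusted p of each list of pathway and GTPase genes, up to 5 such flanking genes, and the 10 genes of most similar profile; Bcl2, Il7r, Myb and Gbp2 were named after their values were seen. Markers were summarised as lists. A further list that was examined is not reported here. The numbers 3 and 6 occur in titles of both genotypes, without a stated pairing. Alternatives were other filters, scalings, floors and spread estimates, array weights, a number block, averaged probe sets, and leaving out arrays. Promoter sequence came from RefSeq.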

Additional observations from a re-analysis of the deposited data

Results flagged for a closer look

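In 4 of the 50 groups of 4 arrays examined, 1 array lay far from the other 3, and chance flags about 1 in 20 such groups. All 4 are marker list means (log2 intensity), and none is a Gimap probe set. The neutrophil mean of Nix_KO 2 was 10.71, against 9.89 to 9.95 in the other Nix-null arrays. The dendritic cell mean was 8.33 in Nix_KO 10, above the other Nix-null arrays (7.58 to 7.67), and 8.62 in WT 3, below the other wild-type ones (8.94 to 8.95). The pancreatic acinar mean of Nix_KO 3 was 13.09, against 5.43 to 6.31 in the other Nix-null arrays. Nix_KO 10 was also the array with the highest GIMAP mean of its genotype (9.88).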

How the results depend on the processing

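With 4 arrays a group and 1 tissue, the limits are set by the number of arrays, by dim signal and by the choice of scale. Under the 17 alternatives other than marker scaling, all 11 Gimap probe sets stayed lower in Nix-null spleen. Gimap1 then differed by -1.90 to -1.40, with its call over probe sets lost in 2, namely the replicate block and the 5 arrays left without Nix_KO 3, WT 3 and WT 5, a setting chosen after seeing the data.

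Of 11 Gimap probe sets (8 lower), 5 fell with no filter, 1 with T cell scaling, 0 with B cell scaling, 0 without those 3 arrays, and 5 to 9 when single arrays were left out. In that order, 7.28%, 0.859%, 0.157% and 0.85% of all probe sets fell, and 9.38% to 18.9% when single arrays were left out. Of 8 genes (7 lower), the counts were 1, 0 and 3 under T cell scaling, B cell scaling and without those 3 arrays, and 3 to 7 without single arrays. Over all genes, 0.78% fell and 41.1% rose under T cell scaling, and 0.118% and 86.6% under B cell scaling. Without the 3 arrays 7.6% of all genes fell. Without single arrays 16.1% to 24.9% of all genes fell and 11.1% to 14.7% rose. Survival genes (16 lower, 2 higher) gave 0 lower and 5 higher under T cell scaling, 0 and 15 under B cell scaling, 4 lower without the 3 arrays, and 11 to 17 lower and 2 to 3 higher without single arrays. Immunity-related and guanylate-binding GTPases (5 lower, 0 higher) gave 2 lower with no filter, 3 with quantile scaling, 3 with median centring, 0 lower and 1 higher under T cell scaling, 0 and 9 under B cell scaling, and 1 to 6 lower without single arrays. With no filter, quantile scaling and median centring, 13.4%, 20.8% and 18.7% of all genes fell. Flanking genes (7 lower, 0 higher) gave 0 and 3 under T cell scaling, 0 and 10 under B cell scaling, 1 higher with array weights, 4 lower without the 3 arrays, and 5 to 9 lower and 0 to 1 higher without single arrays.

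The replicate block, which pairs the numbers 3 and 6, called 0 of 11 Gimap probe sets and 1 of all probe sets. At the gene level 5 of 8 Gimap genes fell under the block (Gimap1, Gimap3, Gimap4, Gimap6 and Gimap7), where 6.07% of all genes did. It gave 7 lower and 1 higher among survival genes, 2 lower among immunity-related GTPases, and 3 lower and 1 higher among flanking genes. The deviations of same-numbered arrays correlated at 0.25 and 0.15 in only 2 pairs, so the numbers were not taken as a pairing.

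Scaling to T cell markers reversed Gimap4 set B (0.09), Gimap9 (0.46), Irgm2 (0.16), Gbp6 (0.06), Gbp3 (0.06) and Il7r (0.47). Scaling to B cell markers reversed Gimap3 (0.08), Gimap4 sets A and B (0.53 and 0.67), Gimap5 (0.05), Gimap6 sets A and B (0.35 and 0.07), Gimap7 set A (0.46), Gimap8 (0.37) and Gimap9 (1.04). It likewise reversed Runx3 (0.11), Klf2 (0.14), Coro1a (0.43), Bcl2 (0.47), Il7r (1.04), Irgm2 (0.74), Gbp6 (0.64), Gbp8 (0.32), Gbp3 (0.63), Zfp467 (0.37), Rarres2 (0.46), Tmem176b (0.29), Zfp775 (0.22) and Tmem176a (0.15). Of the genes of similar profile it reversed Hif1a (0.38), Abi3bp (0.38), Cd8a (0.30), Uhrf1bp1l (0.48), Tlr1 (0.43), Birc3 (0.34), Papss2 (0.27), Retreg1 (0.41), Plekha2 (0.36) and Helz2 (0.32). The mean of all probe sets reversed Il7r (0.05), and array weights reversed Il7r (0.04). Scaling to a marker list by construction takes that list's own difference from every gene; the cause of the other changes was not tested. No pair of members passed after adjustment with a floor or quantile scaling either, and leaving out an array was not run for pairs, since 3 against 4 arrays cannot give an exact p below 0.0571.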
